A study of Homo sapiens with 8 samples.

Results

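The untreated state of KYSE70, a line established from a human squamous cell carcinoma of the esophagus, was described from the 3 libraries that the labels give as untreated, of 8 libraries in the series. The other libraries came from the same line exposed for 72 h to pyrimethamine at 10 µM (n = 2) or to mitoxantrone at 20 nM (n = 3), compounds which the series title calls NRF2 inhibitors. They enter none of the values given here. The cells grew in RPMI1640 medium with fetal bovine serum and antibiotics, and total RNA was sequenced. The groups share no added allele or transgene in the labels. KYSE70 is a single cell line, so its levels stand for that line and not for the tumour type, and whether a vehicle was added to untreated cells is not stated in the labels. The labels also do not say whether the 3 libraries came from separate cultures, so the spread between them may be technical.

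Squamous epithelium is stratified: basal cells attached to the basement membrane divide, express the transcription factor p63 and the keratin pair KRT5 and KRT14, and exchange these for KRT4 and KRT13 or, in skin, KRT1 and KRT10 as they move outwards and build a cornified envelope. SOX2 specifies the foregut epithelium that becomes esophagus, and TP63 and SOX2 lie on the same arm of chromosome 3, which squamous carcinomas often gain. NRF2, encoded by NFE2L2, is a transcription factor that KEAP1 holds in the cytoplasm and hands to the CUL3 ubiquitin ligase. When it escapes KEAP1 it enters the nucleus, pairs with small MAF proteins and binds antioxidant response elements beside genes of glutathione and thioredoxin metabolism, NADPH supply, iron storage and detoxification. In esophageal squamous carcinoma this pathway is often switched on by mutation.

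Levels are given in TPM, a share of all transcripts corrected for gene length, made from the reads behind the deposited values and the summed exon length of each gene, or where stated as the deposited values, which are gene counts divided by a size factor per library. The 3 untreated libraries held 20702029, 24774358 and 18176269 reads, and 20088, 20490 and 19844 of the 28281 genes in the table had a read in replicates 1, 2 and 3. Across genes, which are not independent replicates, the libraries correlated at 0.986 to 0.988 on log2(value + 1), and 97 to 99 of the 100 most abundant genes were shared by each pair. No pair agreed within sampling noise, with chi-square values of 3.43 to 4.27 per degree of freedom, so they were counted as 3 libraries. Of 10605 genes with a mean deposited value of at least 100, at most 2 differed more than 2-fold between any pair of libraries. The median coefficient of variation was 6.93% over 14555 genes with a mean of at least 10, against 4.85% from counting alone. With 3 libraries and no comparison group, an exact two-sided sign-flip test cannot go below p = 0.25, so levels of genes are compared by whether their ranges over the 3 libraries overlap.

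All 4 genes given as markers of these cells stood in the top 10% of the 21507 genes with an exon length. KRT5, the type II keratin of basal squamous cells, reached 3644, 3624 and 3421 TPM. SOX2 reached 228, 235 and 237 TPM, and TP63, which encodes p63, reached 84.8, 83.6 and 83.6 TPM. NQO1, a quinone reductase and a standard readout of NRF2, reached 1371, 1308 and 1338 TPM. The 3 libraries were close together for each of the 4 genes, and their percentiles were 99.9 for KRT5, 99.6 for NQO1, 96.7 for SOX2 and 90.2 for TP63. Of 3 further markers of squamous cells, KRT6A reached 1156 ± 25.4 TPM (SD, n = 3) and the desmosomal cadherin DSG3 107 ± 5.79 TPM, but KRT14 only 6.28 ± 1.02 TPM. Among these markers of the labelled squamous cell, TP63, SOX2, KRT5, KRT6A and DSG3 were high and KRT14 was low. Other squamous genes described below were low too, such as KRT16 at 0.603 and GRHL2 at 0.0373 TPM. The list of basal squamous transcription factors had a median percentile of 57.5.

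A gene was called detected where it reached at least 1 TPM in each of the 3 libraries, which 12303 of the 21507 genes with a length did (57.2%), and 11341 of the 17594 protein-coding genes (64.5%). The protein-coding genes fell into 5936 under 1 TPM, 3924 at 1 to 10, 5988 at 10 to 100, 1613 at 100 to 1000 and 133 at 1000 TPM or more, with a median of 6.50 TPM. The RNA was concentrated in few genes: 401 genes supplied 50% of transcripts and 4266 supplied 90%. Short microRNA genes are included in these counts, such as MIR1282 at 12700, MIR3661 at 2059 and MIR762 at 1042 TPM, and their levels are uncertain. The 10, 100 and 1000 most abundant genes took 5.48%, 21.8% and 55.0% of reads. At the other end, 5359 of all 28281 genes had no read in any library (18.9%), among them 1672 protein-coding genes (9.5%). A count of 0 allows up to 3 reads, or 0.121 to 0.165 RPM (reads scaled to library size) in these libraries, which covers counting error only.

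The top of the protein-coding list joined ferritin, the cytoskeleton, translation and redox enzymes. FTL, the light chain of ferritin, which stores iron, led with 12462, 12251 and 13477 TPM. TMSB10, which binds actin monomers, followed at 9758 ± 319 TPM, then FTH1, the ferritin heavy chain, at 8738 ± 286 TPM. FTL exceeded FTH1 in every library by a ratio of 1.46 ± 0.0364, but this order depends on the gene length, with a ratio of 0.882 for the longest transcript and 0.565 for the median transcript. ACTB, or beta-actin, stood at 7834 TPM and GAPDH of glycolysis at 7373 TPM. EEF1A1, which delivers aminoacyl-tRNA to the ribosome, stood at 5658 TPM. Of the 25 most abundant protein-coding genes, 9 encode cytosolic ribosomal proteins, led by RPS6 at 5723 TPM and followed by RPS2, RPL13A, RPL8, RPL35, RPL7A, RPS12 and RPS18 among others. As a family, 83 ribosomal protein genes supplied 12.8% of transcripts. Ferritin and ribosomal protein genes have many processed pseudogenes, so their levels are uncertain.

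The other genes among the 25 were more particular to a function. PRDX1, a peroxiredoxin that removes hydrogen peroxide, reached 4513 ± 76.0 TPM and TXN, the thioredoxin that recharges it, 3588 ± 102 TPM. TYMS, the thymidylate synthase that makes dTMP, reached 4177 ± 65.7 TPM and was the fifteenth protein-coding gene in order. MYL12B, a regulatory light chain of myosin II, reached 4418 ± 105 TPM. S100A11 stood at 3869 TPM, SLC25A5, the ADP/ATP carrier of mitochondria, at 3780 TPM, and TUBA1B, an alpha-tubulin, at 3747 TPM. UBB, a ubiquitin gene, stood at 3829 TPM and TMSB4X at 3663 TPM. KRT5 was the 24th. Its 3 libraries (3421 to 3644 TPM) overlapped with those of TXN, its neighbour in the order. These places hold for summed exon lengths only. With median transcript lengths KRT5 reached 5150 TPM, above FTL at 3275, TYMS at 2932 and MYL12B at 2064 TPM.

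**Figure D1:**
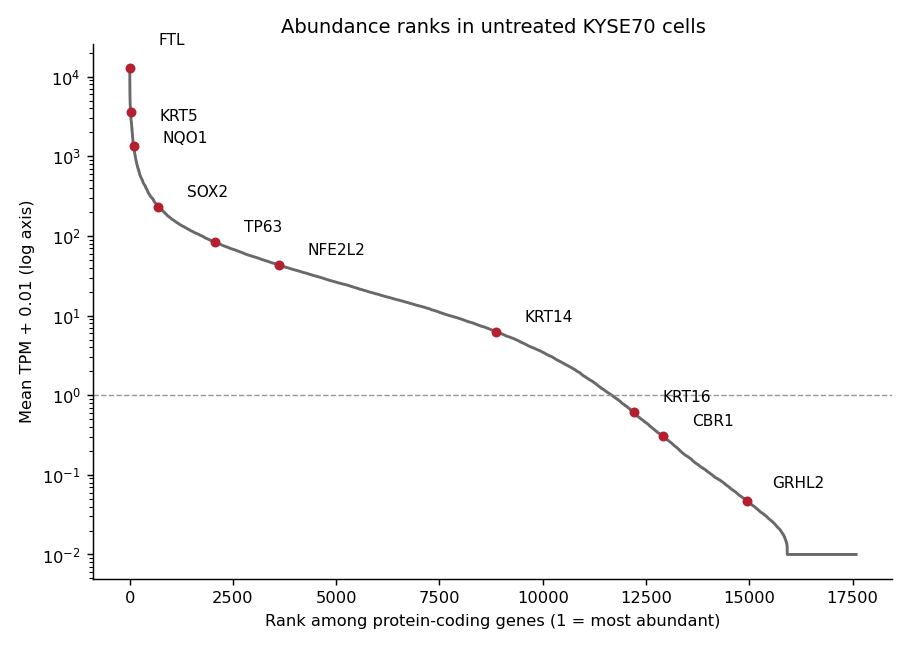
Mean TPM over the 3 untreated libraries (log axis, 0.01 added) for every protein-coding gene in order of abundance, with 10 genes marked. The dashed line is 1 TPM; FTL is at the top with 12730 TPM, KRT5 and NQO1 lie above 1000 TPM, and KRT16, CBR1 and GRHL2 lie below the line.

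Gene lists of a cell's programmes lay at different heights in this order. By median percentile among genes with a length, glycolytic enzymes stood at 98.8, aldo-keto reductases at 95.9, NRF2 targets at 94.9 and hemidesmosome genes at 92.0. Basal keratins stood at 67.1, basal squamous transcription factors at 57.5 and cornified envelope genes at 41.9. Markers of fibroblasts stood at 32.9, of leukocytes at 18.5, of endothelium at 16.5 and of glandular epithelium at 14.1. The lists were chosen with earlier results of these data known, so these medians are descriptions.

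**Figure D2:**
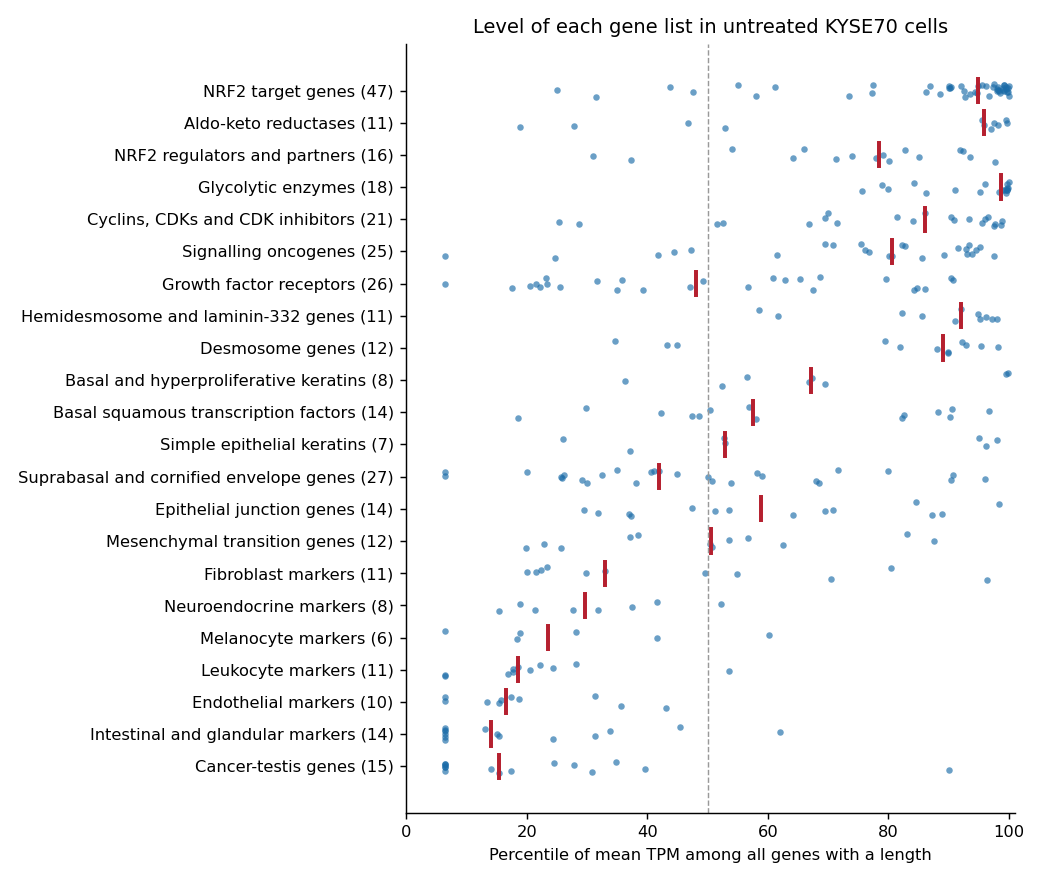
Each point is a gene, placed by the percentile of its mean TPM in untreated cells among all 21507 genes with a length; the red bar is the list's median and the number of genes with a level is in parentheses. NRF2 targets crowd at the right, with a median of 94.9, and markers of other cell types lie mostly at the left.

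Keratins were dominated by type II genes. Keratin filaments assemble from type I and type II chains in equal numbers, and here 25 type II genes summed to 5418, 5371 and 5220 TPM and 23 type I genes to 541, 535 and 521 TPM. The ratio of the sums was 10.0 ± 0.0134 (SD, n = 3), 11.1 with longest-transcript lengths and 21.7 with median lengths. KRT5 supplied most of the type II sum. Its usual partner KRT14 was low: deposited values were 84458, 82963 and 78011 for KRT5 and 91.0, 65.3 and 73.6 for KRT14. On the TPM scale KRT5 exceeded KRT14 by 577 ± 91.5 times (493 to 675 over libraries), and by 713 and 1497 times with the other lengths. The values of the 2 genes did not overlap. KRT14, KRT16 and KRT17 share sequence with one another and with pseudogenes, and the handling of reads that match several genes is not stated in the sources, so their levels are uncertain.

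KRT5 lies at chr12:52514575-52520687 on the reverse strand (GRCh38), and KRT14 at chr17:41582279-41586921, on different chromosomes and in separate keratin clusters. The 250 bases before the KRT5 start, at chr12:52520395-52520644 on the reverse strand, are shown from RefSeq (GRCh38.p14) because KRT5 is the most abundant lineage gene. The RefSeq start differs from the outermost GENCODE 29 start, so these bases lie within the GENCODE interval just given. In the sequence, capitals mark the letters ATAAAA close to the start, which resemble the core of a TATA box.
KRT5: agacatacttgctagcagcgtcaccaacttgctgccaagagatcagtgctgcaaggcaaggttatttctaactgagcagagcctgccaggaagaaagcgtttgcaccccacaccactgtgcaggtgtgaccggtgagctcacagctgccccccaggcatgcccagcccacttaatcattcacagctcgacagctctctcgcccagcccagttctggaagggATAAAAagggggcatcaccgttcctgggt
The search for ATAAAA covered both strands, and the run can overlap TATAAA. It is found in 16.4% of all promoters of the table, and in KRT5 it is a description of the letters, not a measured site. The KRT5 promoter is also poor in CpG, with an observed to expected ratio of 0.301 where the median of the genes compared further on was 0.781.

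Among the other basal and hyperproliferative keratins, KRT6A, induced in wounded and hyperproliferative epithelium, reached 1151, 1133 and 1183 TPM, and its near-identical copies KRT6C and KRT6B 14.5 ± 1.96 and 4.29 ± 0.167 TPM. KRT16, the type I partner of KRT6A, stood at 0.619, 0.403 and 0.789 TPM, below 1 TPM in each library. KRT17 reached 16.6 ± 1.43 TPM and KRT15, a keratin of basal cells, 14.05 ± 0.344 TPM. Of the 8 genes on this list, 7 were detected (87.5%, beside 64.5% of protein-coding genes), and all but KRT5 and KRT6A stood below 20 TPM. The ranges of KRT17 and KRT6C overlapped, as did those of KRT6C and KRT15.

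The most abundant type I chains were KRT18, KRT13 and KRT10. KRT18, of simple epithelia, reached 205 ± 12.1 TPM, and its type II partner KRT8 379 ± 3.99 TPM, a KRT8 to KRT18 ratio of 1.85 ± 0.115. KRT8 and KRT18 are side by side on chromosome 12 and both have many pseudogenes. KRT13, of the suprabasal layers of esophagus, reached 202, 198 and 185 TPM, while KRT4, its type II partner there, reached 1.23, 1.25 and 0.707 TPM. KRT10 reached 94.1, 98.3 and 71.2 TPM and its partner KRT1 11.7, 8.30 and 3.22 TPM, lowest in replicate 3 in both cases. KRT80 reached 158 ± 7.50 TPM. KRT19 and KRT7, which mark simple and glandular epithelia, stood at 4.51 ± 1.39 and 4.41 ± 0.732 TPM with overlapping ranges. The intestinal keratin KRT20 was at 0.127 TPM.

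**Figure D3:**
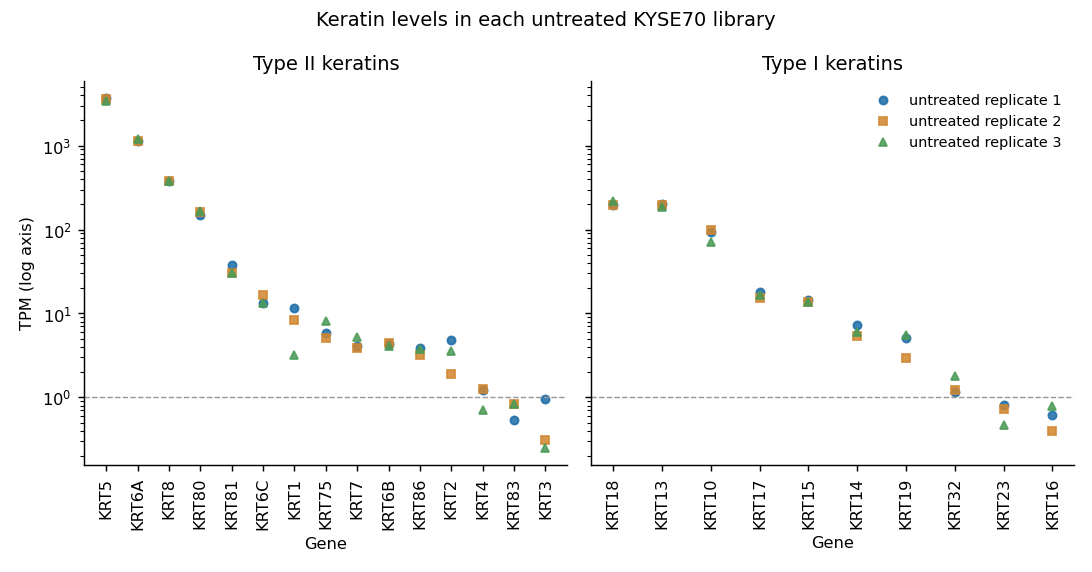
TPM (log axis) of each keratin with a mean of at least 0.5 TPM in the 3 untreated libraries, type II on the left and type I on the right; the dashed line is 1 TPM. KRT5 stands at 3421 to 3644 TPM and KRT14 at 5.37 to 7.39 TPM.

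Of 14 transcription factors of basal squamous cells, 11 were detected (78.6%, beside 64.5% of protein-coding genes). SOX2 was the highest at 233 ± 4.99 TPM, and the SOX2 to TP63 ratio was 2.78 ± 0.0823, an order that held with longest-transcript lengths (1.83) and turned with median lengths (0.653). TP63 stood at 84.0 ± 0.717 TPM. TP73, a relative of TP63, reached 41.7 ± 0.751 TPM, a TP63 to TP73 ratio of 2.02 ± 0.0466. PITX1 stood at 68.9 ± 2.33 TPM and KLF5, a regulator of basal epithelial growth, at 42.4 ± 3.57 TPM.

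Below these, levels dropped. TFAP2A and TFAP2C, AP-2 factors of the epidermis, reached 7.19 ± 0.216 and 6.54 ± 0.418 TPM. FOXE1 reached 3.56 ± 0.779 TPM, GRHL3 2.92 ± 0.691, PAX9 2.55 ± 0.655 and SOX15 1.34 ± 0.386 TPM. ZNF750, a p63 target that drives differentiation, had 1, 6 and 8 reads. GRHL2, a grainyhead factor that maintains epithelial junctions, had 2, 1 and 1 reads at chr8:101492432-101669726. Those counts put both genes under 0.5 TPM in each library.

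Genes of the surface layers ranged from abundant to silent. Of 27 suprabasal and cornified envelope genes, 13 were detected (48.1%, beside 57.2% of all genes and 64.5% of protein-coding genes). In the top 10% of genes stood 3 (KRT13, KRT10 and CSTA), and 2 had no read (CRNN and MAL, both abundant in normal esophagus). CSTA, or cystatin A, reached 85.4 ± 2.85 TPM. The plakins PPL and EVPL, which scaffold the envelope, reached 35.1 ± 1.18 and 19.4 ± 1.65 TPM, and FLG, or filaggrin, 12.1, 17.9 and 16.8 TPM. CNFN reached 15.04 ± 4.54 TPM, ECM1 7.28 ± 0.554, KLK5 4.98 ± 0.541 and KLK7 1.93 ± 0.750 TPM. LOR, or loricrin, stood at 3.65 ± 0.464 TPM and KRT2 at 3.42 ± 1.44 TPM.

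IVL, or involucrin, the first envelope precursor, had deposited values of 0.919, 1.52 and 2.07, or 0.131 TPM. The transglutaminases that crosslink the envelope, TGM1 and TGM3, were at 0.121 and 0.235 TPM. The small proline-rich genes stood low as well, with SPRR1B at 1.14, SPRR1A at 0.772, SPRR2D at 0.491, SPRR2A at 0.344 and SPRR3 at 0.123 TPM. SBSN stood at 1.27 TPM, KRT78 at 0.202 and KRT9 at 0.0491 TPM. Of the 26 neighbouring pairs in this list's order, 19 overlapped in range, so below the first genes the order is not resolved.

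Attachment genes were nearly all present. All 11 hemidesmosome and laminin-332 genes were detected, beside 64.5% of protein-coding genes, and 7 lay in the top 10% of genes. These anchor basal cells to the basement membrane. LAMB3 reached 377, 397 and 374 TPM, but LAMA3, the alpha chain it joins in laminin-332, was lower at 6.73, 8.48 and 7.25 TPM. The LAMB3 to LAMA3 ratio was 51.5 ± 4.67, which came to 40.7 with longest-transcript lengths and 7.59 with median lengths. COL17A1, the collagen of the hemidesmosome, reached 208 ± 18.0 TPM. The integrin chains ITGB1, ITGB4, ITGA3 and ITGA6 reached 267, 163, 92.1 and 54.9 TPM. CD151, PLEC and DST stood at 154, 105 and 9.54 TPM.

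Of 12 desmosome genes, 11 were detected (91.7%, beside 64.5% of protein-coding genes). PERP, a p63 target, led with 402 ± 4.66 TPM, followed by JUP, or plakoglobin, at 170 ± 5.66 TPM and PKP3 at 116 ± 8.91 TPM. DSG3, DSC3 and DSG2 reached 107, 81.2 and 81.0 TPM, DSP, or desmoplakin, 68.4 TPM, PKP1 40.2 and PKP2 33.8 TPM. The cadherin DSC2 stood at 1.89 TPM, and DSC1 and DSG1, cadherins of the upper layers, were lowest at 1.53 and 0.469 TPM.

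Junction genes were split. Of 14, 10 were detected (71.4%, beside 64.5% of protein-coding genes). EPCAM reached 458, 423 and 435 TPM and CDH1, or E-cadherin, 75.1, 72.9 and 72.0 TPM. CLDN1 stood at 63.2 ± 1.27 TPM, ST14, or matriptase, at 50.3 ± 5.29, TJP1 at 18.4 and ESRP2, an epithelial splicing regulator, at 16.8 TPM. MARVELD3, OCLN and CLDN4 stood at 11.6, 4.81 and 3.83 TPM. CDH3, or P-cadherin of basal cells, had 13, 6 and 5 reads or fewer than 0.4 TPM. ESRP1, CLDN7 and RAB25 stood at 0.683, 0.657 and 0.309 TPM.

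Among 12 genes of mesenchymal transition, 7 were detected (58.3%), beside 57.2% of all genes with a length and 64.5% of protein-coding genes. SNAI2, or Slug, which basal epithelia also express, reached 64.6 ± 2.89 TPM, and CDH2, or N-cadherin, 45.5, 43.0 and 44.3 TPM. CDH1 exceeded CDH2 by a ratio of 1.66 ± 0.0357, which was 1.83 with longest-transcript lengths and turned to 0.660 with median lengths. FOXC2 stood at 10.1 TPM, VIM, or vimentin, at 6.37 ± 0.894 TPM, FN1 at 4.79, TWIST1 at 3.63 and SNAI1 at 3.52 TPM. ZEB1, SPARC, TWIST2, PRRX1 and ZEB2 lay at 0.805, 0.669, 0.120, 0.0774 and 0.0478 TPM.

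Markers of other cell types were checked as whole lists. Of 60 markers with a level, 11 were detected and 11 had no read, beside 64.5% and 9.5% of protein-coding genes. Among the 60, 3 reached 10 TPM. The 3 were on the fibroblast list: PDPN, or podoplanin, which basal squamous cells also express, at 212 ± 3.12 TPM, THY1 at 36.5 ± 1.66 TPM and COL1A1 at 17.8 ± 0.755 TPM. That list, 5 of 11 detected, summed to 272 to 281 TPM over the libraries. Also detected on it were COL3A1 at 5.46 and POSTN at 3.23 TPM. COL1A2, DCN and PDGFRB stood at 0.230, 0.0730 and 0.0845 TPM. Leukocyte markers had 1 of 11 detected, CD68 at 4.83 TPM, and summed to 4.76 to 6.05 TPM, with CD3E and MS4A1 at 0 and PTPRC at 0.0317 TPM.

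The endothelial list had 1 of 10 detected, VWF at 1.52 TPM, and summed to 2.19 to 2.87 TPM, with KDR and ERG at 0 and PECAM1 and CDH5 at 0.0290 and 0.0200 TPM. Glandular and intestinal markers had 2 of 14 detected, GATA6 at 9.78 ± 0.690 and GATA4 at 2.00 ± 0.438 TPM, and summed to 12.4 to 12.8 TPM, with CDX2, MUC5AC, TFF1, VIL1, AGR3 and REG4 at 0. Neuroendocrine markers had 1 of 8 detected, SCG2 at 4.22 TPM, and summed to 6.62 to 6.84 TPM, with POU2F3, of tuft cells, lowest at 0.0183 TPM. Melanocyte markers had 1 of 6 detected, MITF at 8.48 TPM, and summed to 9.34 to 10.5 TPM, with SOX10 at 0.

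NRF2 targets ranked high among the genes of this line, at a median percentile of 94.9. No cell or state with low NRF2 was at hand for comparison, so activity of the pathway was not tested. NFE2L2 (chr2:177227595-177392697) reached 43.9, 43.9 and 41.8 TPM, at percentile 82.7. KEAP1 (chr19:10486120-10503741) reached 132, 127 and 122 TPM, a KEAP1 to NFE2L2 ratio of 2.94 ± 0.0676, or 1.78 and 1.83 with the other lengths. Mutations in either gene were not analysed here. SQSTM1, or p62, which competes for KEAP1 and is itself a target, reached 337 ± 5.61 TPM, and RBX1 and CUL3 of the ubiquitin ligase 109 ± 8.57 and 18.9 ± 0.439 TPM. Of the small MAF partners, MAFK, MAFG and MAFF stood at 35.6, 32.9 and 5.05 TPM.

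The repressors that share its DNA sites, BACH1 and BACH2, stood at 13.3 and 0.694 TPM. Related factors were NFE2L1 at 103 ± 12.1 TPM, NFE2L3 at 11.5 TPM and NFE2 at 0.275 TPM. The KEAP1-independent route to NRF2 breakdown was present, with GSK3B at 30.5, FBXW11 at 52.3 and BTRC at 22.8 TPM. In all, 14 of these 16 regulators were detected (87.5%, beside 64.5% of protein-coding genes).

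Of 47 listed NRF2 targets, 45 were detected (95.7%), beside 57.2% of all genes with a length and 64.5% of protein-coding genes. A mean of at least 100 TPM was reached by 30, and 34 lay in the top 10% of genes. The targets supplied 4.30%, 4.18% and 4.41% of all transcripts, of which FTL and FTH1 made up 2.10%, 2.09% and 2.25%. These shares hold for summed exon lengths only. With median transcript lengths FTL fell from 12730 to 3275 TPM and FTH1 from 8738 to 5799 TPM. The median of the listed targets was 156 TPM, where the median was 3.37 TPM over all genes with a length and 6.50 TPM over protein-coding genes. The groups of 3 libraries lay close together for nearly every target, and 16 of the 46 neighbouring pairs in the order overlapped in range.

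After ferritin, PRDX1 and TXN of the thioredoxin system were the highest targets. PRDX1 reached 4601, 4471 and 4467 TPM and TXN 3705, 3518 and 3541 TPM. TXNRD1, the reductase that keeps TXN reduced, reached 665 ± 14.6 TPM, a TXN to TXNRD1 ratio of 5.40 ± 0.0988. SRXN1, which repairs overoxidised peroxiredoxins, reached 773 ± 5.58 TPM. Among glutathione genes GPX2, an epithelial glutathione peroxidase, reached 810 ± 25.5 TPM, and GSR, which regenerates glutathione, 433 ± 9.67 TPM. GCLC and GCLM, the catalytic and modifier subunits of the rate-limiting enzyme of glutathione synthesis, reached 128 ± 2.28 and 104 ± 2.56 TPM. SLC7A11, the cystine importer that feeds it, reached 82.5 ± 2.25 TPM, and GSTM3 84.4 ± 2.46 TPM.

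NADPH enzymes were all abundant. PGD of the oxidative pentose phosphate pathway reached 903 ± 37.0 TPM, and TKT and TALDO1 of its other branch 395 ± 4.03 and 391 ± 12.4 TPM. ME1 and IDH1 reached 156 ± 4.96 and 150.5 ± 11.6 TPM. Among iron and haem genes HMOX1, or haem oxygenase, reached 144 ± 2.92 TPM, BLVRB 202 ± 11.6 TPM and FECH 57.4 ± 1.22 TPM.

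Detoxifying enzymes included the aldo-keto reductases, which reduce carbonyl groups. AKR1C2 reached 1787, 1610 and 1727 TPM, AKR1B10 1217, 1075 and 1243, AKR1C1 426, 370 and 403 and AKR1C3 172, 161 and 188 TPM. AKR1C genes share long stretches of sequence, so the split among them is uncertain. AKR1B1 stood at 310 ± 7.13 TPM. ALDH3A1, an aldehyde dehydrogenase, reached 739 ± 27.9 TPM, EPHX1, an epoxide hydrolase, 476 ± 21.9 TPM, CES1, a carboxylesterase, 294 ± 17.1 TPM and CBR3, a carbonyl reductase, 110 ± 9.77 TPM. TRIM16L stood at 233, OSGIN1 at 112, NR0B1 at 71.4 and UGDH at 61.5 TPM. UGT1A6, MGST1, PIR, PTGR1 and SLC6A6 reached 29.3, 28.8, 21.98, 9.26 and 7.20 TPM. The export pumps ABCC1, ABCC3 and ABCC2 reached 86.2, 5.55 and 2.62 TPM, and the P450 enzymes CYP4F11 and CYP4F3 82.7 and 1.64 TPM.

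The 2 targets that were not detected were CBR1 and GSTM4. CBR1, a carbonyl reductase beside CBR3 on chromosome 21, had deposited values of 4.595, 0.760 and 6.22, while CBR3 had 658, 657 and 756. No library of CBR1 came near CBR3. CBR1 (chr21:36069941-36073166, forward strand) lies within the interval of SETD4 (chr21:36034541-36079389, reverse strand). The strand setting is not stated in the sources, so the level of CBR1 is uncertain. GSTM4 had 3, 4 and 4 reads.

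**Figure D4:**
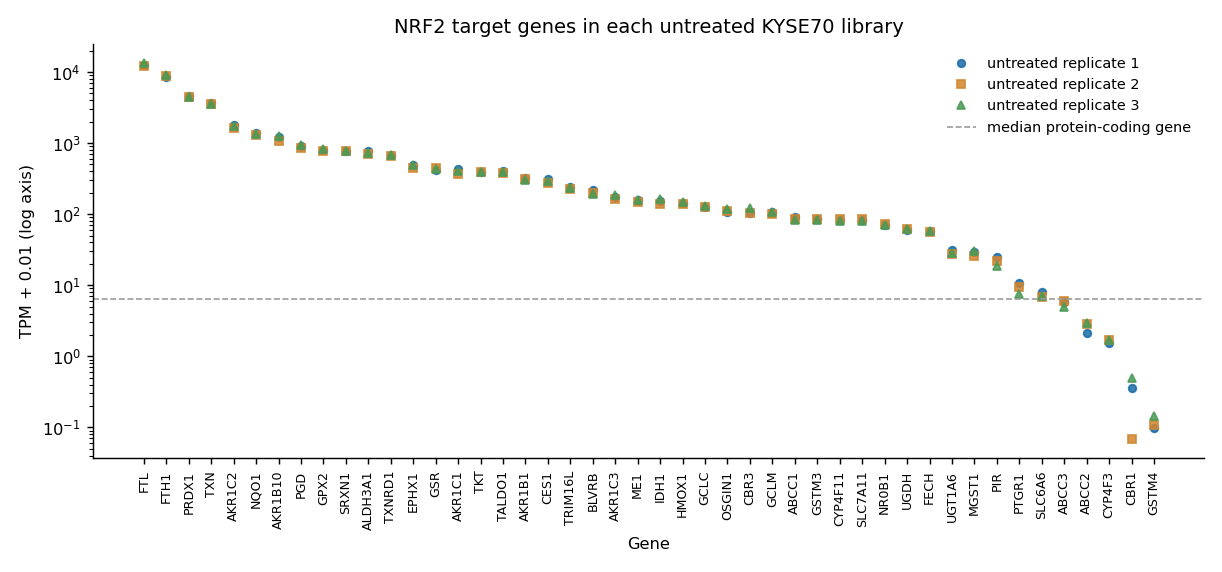
TPM (log axis, 0.01 added) of 46 of the 47 listed NRF2 targets in the 3 untreated libraries, in order of the mean; the dashed line is the median protein-coding gene at 6.50 TPM. Of those plotted, all but ABCC3, ABCC2, CYP4F3, CBR1 and GSTM4 have all libraries above the line.

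The antioxidant response element can be written TGACNNNGC, and it was searched on both strands of the RefSeq promoters (GRCh38.p14), which run from 250 bases before to 50 after the start. Promoters were at hand for 33 of the 47 targets (70.2%), too few for a share over the list to be read, and 9 held a match: GCLM, TXNRD1, PGD, ME1, GPX2, CBR1, CYP4F11, PIR and FECH. Of all promoters 13.6% held one. The 250 bases before the start of 5 of these genes are shown, 4 high targets and the target with hardly a read, with the match in capitals. The TXNRD1 stretch is chr12:104215529-104215778 on the forward strand and that of CBR1 chr21:36069774-36070023 on the forward strand. GCLM is chr1:93909431-93909680, GPX2 chr14:64942746-64942995 and ME1 chr6:83431052-83431301, each on the reverse strand.
TXNRD1: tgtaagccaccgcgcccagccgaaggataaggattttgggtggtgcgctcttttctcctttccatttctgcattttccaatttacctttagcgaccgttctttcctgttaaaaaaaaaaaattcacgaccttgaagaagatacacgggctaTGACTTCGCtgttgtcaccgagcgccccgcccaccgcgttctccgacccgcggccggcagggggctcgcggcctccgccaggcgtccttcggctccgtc
GCLM: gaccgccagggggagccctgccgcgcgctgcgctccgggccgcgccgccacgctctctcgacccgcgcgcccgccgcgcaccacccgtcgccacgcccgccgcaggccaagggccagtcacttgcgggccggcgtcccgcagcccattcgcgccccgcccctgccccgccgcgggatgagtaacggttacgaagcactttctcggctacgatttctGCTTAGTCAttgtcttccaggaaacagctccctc
GPX2: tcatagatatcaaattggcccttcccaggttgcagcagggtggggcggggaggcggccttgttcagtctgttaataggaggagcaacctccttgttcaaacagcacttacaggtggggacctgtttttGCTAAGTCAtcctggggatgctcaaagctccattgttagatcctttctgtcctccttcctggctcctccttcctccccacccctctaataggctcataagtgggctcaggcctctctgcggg
ME1: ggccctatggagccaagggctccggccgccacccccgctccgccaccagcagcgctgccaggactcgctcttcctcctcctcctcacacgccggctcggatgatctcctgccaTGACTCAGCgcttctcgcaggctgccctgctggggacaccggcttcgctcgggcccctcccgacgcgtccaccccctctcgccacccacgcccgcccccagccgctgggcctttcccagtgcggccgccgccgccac
CBR1: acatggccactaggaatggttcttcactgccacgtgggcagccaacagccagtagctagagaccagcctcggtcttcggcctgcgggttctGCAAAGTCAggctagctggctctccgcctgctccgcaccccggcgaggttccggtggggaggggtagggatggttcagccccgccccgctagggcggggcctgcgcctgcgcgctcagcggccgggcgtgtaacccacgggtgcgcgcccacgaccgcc
The matches begin 99 bases before the start in TXNRD1, 34 in GCLM, 122 in GPX2, 137 in ME1 and 159 in CBR1. The match runs on the gene's strand in TXNRD1 and ME1 and on the opposite strand in GCLM, GPX2 and CBR1. TXNRD1 holds a further match across its start and ME1 one after it, outside the bases shown. The motif letters were present both in genes above 100 TPM and in CBR1 at 0.294 TPM, a level that is uncertain as stated above. A match is not a measured binding site, and TXNRD1 has 2 starts in the RefSeq table, of which the first is shown. The window holds no match for NQO1, FTL, TXN or SRXN1, which says only that these letters are not in these bases.

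Outside the NRF2 list, GSTP1, a glutathione transferase, reached 2062, 2027 and 2055 TPM, GPX4, which protects membrane lipids, 913 ± 12.01 TPM and GPX1 834 ± 4.66 TPM. Of 22 transferases and peroxidases with a level, 15 were detected (68.2%), near the 64.5% of protein-coding genes. At the bottom were GPX7 with no read and MGST2, GSTA1, GPX3, GSTM1, GSTM4 and GSTM5, each with a mean below 0.5 TPM. Of 11 aldo-keto reductases 9 were detected (81.8%, beside 64.5% of protein-coding genes), including AKR7A2 at 256 and AKR1A1 at 189 TPM. AKR1D1, of bile acid synthesis, was lowest at 0.0394 TPM. All 18 glycolytic genes were detected, beside 64.5% of protein-coding genes. They supplied 2.15% of transcripts, led by GAPDH, ENO1 at 2735 ± 67.6 TPM and PKM at 2231 ± 74.9 TPM. The lowest was HK2 at 25.8 ± 0.352 TPM.

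Of 26 growth factor receptors, 14 were detected (53.8%), beside 57.2% of all genes with a length and 64.5% of protein-coding genes. None reached 100 TPM. EPHA2 reached 89.1, 92.7 and 81.4 TPM and DDR1, a collagen receptor, 87.9, 89.97 and 80.1 TPM, with overlapping ranges. EGFR reached 52.0, 61.7 and 55.5 TPM and MET 49.6, 52.4 and 51.0 TPM, also overlapping. ERBB2 reached 14.6 ± 1.10 TPM, and EGFR exceeded it by 3.86 ± 0.233 times, or 2.35 and 2.44 times with the other lengths. EPHB4, FGFR2, IGF1R, NTRK2 and AXL stood at 48.5, 34.4, 15.7, 12.7 and 10.4 TPM. FGFR1, FGFR3, INSR and FGFR4 stood at 8.99, 6.44, 3.11 and 2.43 TPM.

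ERBB3 and ERBB4, the other partners of EGFR, stood at 0.492 and 0.896 TPM. MST1R, RET, NTRK3, PDGFRB, ALK, ROS1, PDGFRA and KIT lay between 0.0306 and 0.564 TPM, and KDR had no read. Of 8 ligands of the EGFR family 4 were detected (50.0%, beside 57.2% of all genes and 64.5% of protein-coding genes). They were AREG, or amphiregulin, at 107 ± 1.95 TPM, TGFA at 49.8 ± 2.16 TPM, NRG1 at 47.9 ± 2.41 TPM and HBEGF at 1.83 TPM. EREG was lowest, with 1 read in replicate 1.

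Of 25 signalling oncogenes 23 were detected (92%, beside 64.5% of protein-coding genes), with a median of 36.8 TPM. BIRC5, or survivin, led with 304 ± 6.62 TPM. MYC reached 115, 123 and 112 TPM, MYCL 9.45 ± 0.877 TPM, and MYCN had no read. The RAS genes HRAS and NRAS reached 146 and 115 TPM. BCL2L1, or BCL-XL, reached 162 ± 7.45 TPM and BCL2 1.26 ± 0.164 TPM, a ratio of 129 ± 11.6. MCL1 stood at 132 ± 2.28 TPM. YAP1 and WWTR1, effectors of the Hippo pathway, reached 125 and 28.0 TPM and CTNNB1, or beta-catenin, 98.7 TPM.

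AKT1 and AKT2 stood at 75.9 and 16.7 TPM, and PIK3CA and MTOR, of the same pathway, at 35.6 and 18.3 TPM. BRAF stood at 2.48 TPM, ABL1 and SRC at 43.2 and 26.7 TPM, and MDM2 and MDM4 at 41.6 and 1.75 TPM. TERT, the telomerase reverse transcriptase, had 5, 4 and 0 reads.

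Cell cycle genes were high, with 19 of 21 detected (90.5%, beside 64.5% of protein-coding genes) and 8 at or above 100 TPM. CCNB1, the mitotic cyclin, reached 598, 569 and 595 TPM, CDK4 555, 515 and 534 TPM, CDK1 336 ± 14.2 TPM and CCNA2 308 ± 5.04 TPM. CDK4 exceeded CDK6, at 56.4 ± 4.38 TPM, by 9.51 ± 0.811 times, or 13.7 and 2.48 times with the other lengths. CCND1, or cyclin D1, reached 211, 239 and 221 TPM and CCND3 176, 175 and 179 TPM. CCND1 lay above CCND3 in every library by 1.27 ± 0.0852 times and by 1.11 times with median lengths, but below it with longest-transcript lengths (0.585). CCND2 stood at 4.32 ± 0.676 TPM. CDK2, E2F1, CCNE1 and CCNE2 stood at 91.1, 85.1, 39.2 and 19.3 TPM, and RB1 and RBL1 at 48.0 and 14.02 TPM.

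The inhibitors of the cycle were uneven. CDKN1A, or p21, reached 204, 203 and 198 TPM and CDKN1B, or p27, 124 ± 3.43 TPM. CDKN2D and CDKN2C stood at 17.3 and 16.7 TPM and CDKN1C at 3.93 TPM. CDKN2A, which encodes p16 and ARF, had 2, 4 and 3 reads and CDKN2B, or p15, 5, 3 and 5 reads.

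Of 24 tumour suppressors of squamous carcinoma 22 were detected (91.7%, beside 64.5% of protein-coding genes), with a median of 14.2 TPM. TGFBR2 led at 109 ± 4.47 TPM, then AJUBA at 69.8 and BAP1 at 50.0 TPM. NOTCH1, NOTCH2 and NOTCH3 stood at 21.9, 16.8 and 2.40 TPM, FAT1 at 32.6 and MTAP at 26.7 TPM. The chromatin regulators ARID1A, EP300, CREBBP, KMT2D and KMT2C stood at 19.8, 16.6, 13.4, 10.9 and 2.13 TPM.

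SMAD4, CASP8, NF1, TSC2, TSC1 and FBXW7 stood at 14.99, 7.41, 6.87, 5.81, 2.73 and 3.84 TPM, and LRP1B at 1.59 TPM. The 2 that were not detected were ZNF750 and FHIT, a gene across a fragile site, which had 0.125, 0.0786 and 0.179 TPM.

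Pyrimethamine is an antifolate and mitoxantrone a topoisomerase II poison, and genes of folate use and of DNA topology were expressed in untreated cells. TYMS, which draws on a folate cofactor, reached 4253, 4144 and 4134 TPM. SLC19A1, the folate carrier, and FPGS, which retains folates in the cell, stood at 15.04 and 119 TPM. Of the topoisomerases that mitoxantrone poisons, TOP2A of dividing cells reached 70.4, 72.4 and 64.8 TPM and TOP2B 38.2, 39.6 and 34.6 TPM, with no overlap.

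TOP1 stood at 58.8 TPM, and the repair enzymes TDP2 and TDP1 at 91.0 and 14.9 TPM. ABCG2, a pump that exports mitoxantrone, reached 13.4, 12.7 and 12.8 TPM, while ABCB1, or P-glycoprotein, had 0, 3 and 2 reads. ABCC1 stood at 86.2 TPM. STAT3, which pyrimethamine is also reported to inhibit, stood at 14.9 ± 0.501 TPM.

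The neighbours of some genes were described after the values had been seen. TYMS lies at chr18:657604-673578, and the next protein-coding genes ENOSF1 and YES1, a SRC family kinase, reached 506 ± 7.11 and 701 ± 11.4 TPM. YES1 exceeded SRC by 26.3 ± 1.10 times, or 20.7 and 2.73 times with the other lengths. CLUL1, just before TYMS, stood at 5.26 TPM and ADCYAP1, just beyond YES1, had 1 read. TYMS overlaps ENOSF1 and an antisense gene, and the strand setting is not stated in the sources, so reads of these genes cannot be told apart. Further along the same arm MYL12A and MYL12B reached 1190 ± 27.2 and 4418 ± 105 TPM. DNA copy number was not measured.

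On the long arm of chromosome 3, 12 of 13 listed genes of the 3q26 to 3q29 region were detected, with a median of 69.4 TPM. That is 92.3%, beside 57.2% of all genes with a length and 64.5% of protein-coding genes. ACTL6A, a chromatin remodelling subunit that binds p63, led with 903, 851 and 881 TPM. MFN1 reached 154 ± 9.39 TPM, and TERC, the telomerase RNA, was lowest with 0, 3 and 3 reads. Close to SOX2, NDUFB5 reached 677 ± 11.96 TPM, DNAJC19 128 and FXR1 93.6 TPM, while CCDC39 and PEX5L stood at 0.413 and 0.572 TPM. Of 12 genes of 11q13, 7 were detected (58.3%, beside 57.2% of all genes and 64.5% of protein-coding genes). CCND1, FADD at 99.8 ± 0.937 and CTTN at 41.2 ± 1.93 TPM led, and FGF4 had no read. On the short arm of chromosome 9, MTAP (chr9:21802543-21937651) reached 25.6, 27.7 and 26.9 TPM, while CDKN2A (chr9:21967753-21995301) and CDKN2B beyond it had at most 5 reads per library.

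**Figure D5:**
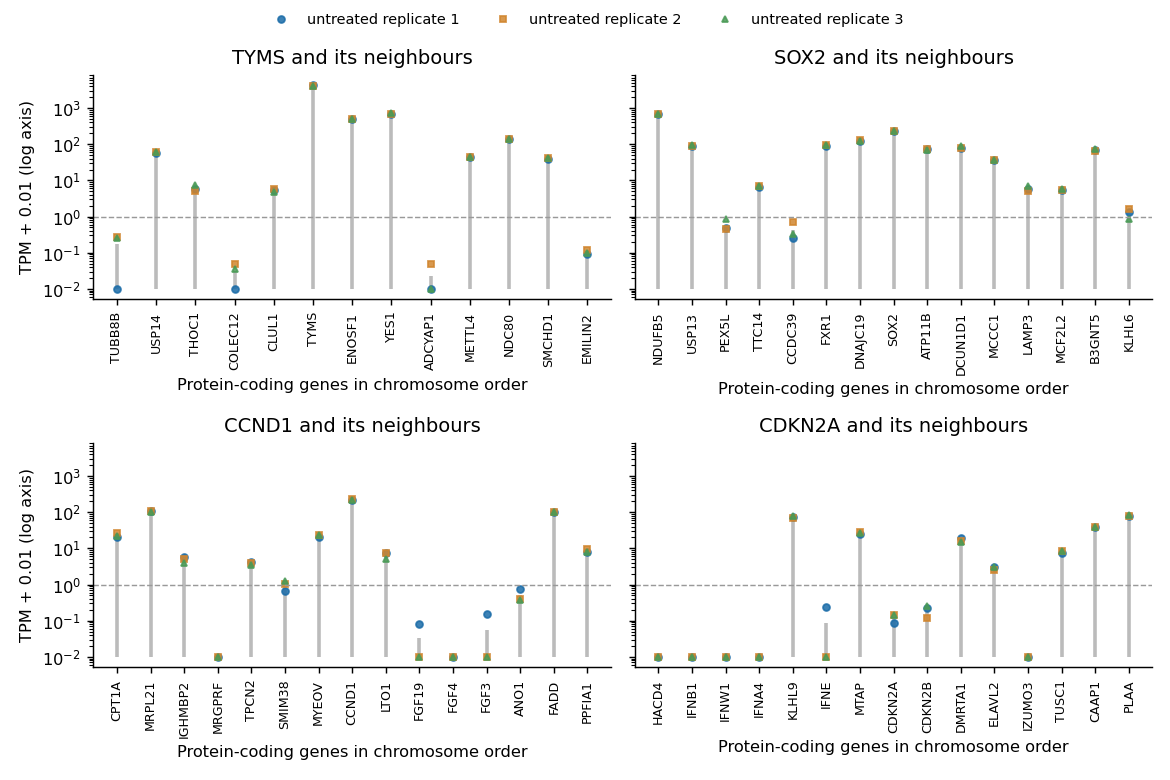
TPM (log axis, 0.01 added) of protein-coding genes in chromosome order around TYMS, SOX2, CCND1 and CDKN2A; points are the 3 untreated libraries, bars reach the mean and the dashed line is 1 TPM. TYMS stands at 4177 TPM beside CLUL1 at 5.26 TPM, and CDKN2A and CDKN2B lie below 1 TPM between MTAP and DMRTA1.

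HOX genes specify position along the body axis. Of 38 with a level 22 were detected (57.9%), beside 57.2% of all genes with a length and 64.5% of protein-coding genes. Of the HOXA cluster 8 of 11 were detected, all under 10 TPM, from HOXA13 at 8.15 TPM, HOXA4 at 7.63 and HOXA3 at 7.49 TPM to HOXA11 at 2.99 and HOXA6 at 2.34 TPM. HOXA5 and HOXA10 stood at 6.32 and 6.14 TPM, and HOXA2, HOXA7 and HOXA9 at 0.652, 0.257 and 0.0157 TPM. In HOXB 5 of 10 were detected. HOXB7 reached 64.8, 77.2 and 77.1 TPM, HOXB9 18.1 ± 2.41, HOXB13 12.7 ± 1.01, HOXB6 7.18 and HOXB8 2.46 TPM. HOXB1, HOXB2, HOXB3, HOXB4 and HOXB5 had means below 0.3 TPM.

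In HOXC 7 of 8 were detected. HOXC10 reached 67.7 ± 1.68 TPM, HOXC13 37.2 ± 1.86 and HOXC9 11.1 ± 0.968 TPM. HOXC6, HOXC11, HOXC4, HOXC8 and HOXC5 stood at 4.37, 4.37, 4.15, 2.44 and 0.787 TPM. The HOXD cluster was the lowest, with HOXD8 at 3.70 and HOXD11 at 3.00 TPM detected of 9. HOXD13, HOXD10 and HOXD1 stood at 1.119, 0.189 and 0.0810 TPM, and HOXD3, HOXD4, HOXD9 and HOXD12 had no read.

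Of 15 cancer-testis genes with a level, 1 was detected (6.67%, beside 64.5% of protein-coding genes). That was PRAME, a testis gene re-expressed in tumours, at 85.04, 78.9 and 84.2 TPM (chr22:22547701-22559361). SSX1 followed at 0.939 and SPANXB1 at 0.482 TPM, and 6 genes had no read. Of 18 surface antigens 11 were detected (61.1%), beside 57.2% of all genes with a length and 64.5% of protein-coding genes. SLC3A2, the heavy chain of the cystine importer and of amino acid exchangers, reached 816, 829 and 714 TPM, EPCAM 439 ± 17.9 TPM and TFRC, which takes up iron, 335 ± 5.78 TPM. MUC16 was lowest at 0.00989 TPM.

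Of 15 S100 genes with a level 9 were detected (60.0%, beside 57.2% of all genes and 64.5% of protein-coding genes). Among them 3 took most of the summed TPM of 8862 to 9330. S100A11 reached 3869 ± 161 TPM, S100A6 2002 ± 148 TPM and S100A2, a p63 target of basal cells, 1753 ± 180 TPM, the ranges of S100A6 and S100A2 overlapping. S100A8, an alarmin of inflamed epithelium, had no read. Of 16 Notch pathway genes 14 were detected (87.5%, beside 64.5% of protein-coding genes). They were led by NRARP at 123 ± 8.16 TPM and the ligands JAG1 and JAG2 at 80.6 ± 3.91 and 80.5 ± 4.37 TPM, which overlapped. NOTCH4 was lowest at 0.0822 TPM. Of 17 interferon-stimulated genes 9 were detected (52.9%), beside 57.2% of all genes with a length and 64.5% of protein-coding genes. ISG15 at 20.97 ± 0.763 and STAT2 at 15.1 ± 0.909 TPM were among the highest and MX2 was lowest at 0.00435 TPM.

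Genes with LOC or LINC symbols, Y-linked genes and XIST were left out of the ranking by spread between the untreated libraries. Among the remaining genes with a mean deposited value of at least 100, the most variable was KRT1. Its values of 157, 110 and 42.5 gave a coefficient of variation of 55.8%, where counting alone would give 9.36%. BAIAP3 (111, 156 and 76.7) and ZBTB46 (130, 106 and 203) followed at 34.6% and 34.5%. PLK3, a stress kinase, gave 33.3%, and NFIA, INPP5B, RTN2, ATP7B, ZSCAN26 and DNAJB5 gave 27.3% to 29.9%. Replicate 3 was the lowest library for KRT1, BAIAP3, PLK3, INPP5B, RTN2, ATP7B and DNAJB5 and the highest for ZBTB46, NFIA and ZSCAN26.

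Promoter sequence, which played no part in choosing the genes, differed between abundance classes. The comparison used 10418 of 12132 protein-coding genes on the 15 of 23 chromosomes where at least 80% of genes had a promoter in the RefSeq table. The median CpG observed to expected ratio was 0.320 for genes with no read and 0.547 for genes with a read but under 1 TPM. It was 0.801 at 1 to 10 TPM, 0.857 at 10 to 100, 0.871 at 100 to 1000 and 0.885 at 1000 TPM or more. The gap between the class at 100 to 1000 TPM and the silent class was 0.551, and it was 0.524 to 0.538 without each library in turn.

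TATAAA on the gene's strand, 45 to 10 bases before the start, was at both ends of the order. It stood in 7.91% of promoters with no read, 5.23% under 1 TPM, 2.65%, 1.22% and 2.56% in the next 3 classes and 10.4% of the 77 promoters at 1000 TPM or more, which are 8 promoters. Over all classes the share was 3.34%. TGACNNNGC stood in 13.1% of silent promoters and 17.9% at 100 to 1000 TPM, beside 14.3% of the whole set. These shares are descriptions over genes, which are not independent, and no test was made of them.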

How the data were processed

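Total RNA was sequenced from KYSE70 cells. The submitters' processing notes name STAR 2.6.90c and hg38, with FastQC 0.11.5, cutadapt 1.12 and, for counts, featureCounts 1.5.1. Annotation, strand setting and multi-mapping rule are not stated there. The deposited values are a normalised signal, gene counts that the authors divided by a size factor per library, as the table's name states. The table has 28281 genes and 0 columns of other samples.

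Each column was whole multiples of a single step, and 100% of values came out as whole reads within 0.1 read. TPM was computed from those reads and the union exon length in GENCODE 29 (GRCh38), 20859 genes being found under their own symbol and 648 under another. The 6774 unmatched genes hold 0.825% of reads and have no level here, and listed genes without a level were not analysed here. Intervals and floors cover counting error only. With 1 group there was no test. The estimate of spread was tested on simulated counts. Values are means ± SD over 3 libraries, computed with Python 3.11.15, pandas 2.3.3, numpy 2.4.6 and scipy 1.17.1 and drawn with matplotlib 3.10.9.

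The genes named are all members of the core and HOX lists and the 3 highest and the lowest of other lists. Also named are the 25 most abundant protein-coding genes and the 10 with the widest spread under the filters given with them. Some genes under these rules are not reported here. Neighbours, families and genes of the promoter section were chosen after their values were seen. The 37 lists and all members were chosen with earlier results of these data known. Alternatives were other gene lengths, thresholds, denominators and leaving out each library. Promoters came from RefSeq on GRCh38.p14.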

Additional observations from a re-analysis of the deposited data

How the results depend on the processing

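No paired analysis was possible because the results come from 1 group and from no test. The median percentile of squamous transcription factors (57.5) became 59.3 with longest-transcript and 59.9 with median lengths, 50.7 among protein-coding genes, 67.5 without division by length and 69.1 among detected genes. For NRF2 targets (94.9) these were 96.1, 94.1, 93.9, 97.3 and 92.1. For basal keratins (67.1), median lengths gave 64.5, protein-coding genes 61.4, no division by length 69.8 and detected genes 42.9, and leaving out a library 66.7 to 67.5. The type II to type I keratin ratio became 11.1 and 21.7 with longest and median lengths. Markers of other cell types numbered 13 at 0.5 TPM and 6 at 5 TPM, and detected genes 13161 and 9608. Genes with at most 3 reads in all numbered 8954. The share of reads in the top 100 genes was 21.9% without genes that lack a length. The median coefficient of variation was 5.27% at a mean of at least 100 and 15.1% with no filter, and 5.42% to 6.04% from pairs of libraries. The CpG gap was 0.524 to 0.538 without a library, and 0.553 and 0.560 with other lengths, both alternatives chosen after seeing the data. Of 534 named or listed genes, median lengths moved 96 by more than 10 percentile points, longest-transcript lengths 3, and leaving out a library 2 to 6. The cause of these shifts was not tested. Leaving out mitochondrially encoded genes alone was not run, since they were not analysed here. The setting of protein-coding genes kept nuclear genes only. Depth limits levels near 0.1 TPM.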

Other observations

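Families of genes with a shared symbol, chosen after their values were seen, ran from none to all detected. Of 35 complex I subunits 35 were detected, of 83 cytosolic ribosomal protein genes 81, of 78 mitochondrial ribosomal protein genes 77, led by MRPL47 at 1453 TPM, and of 38 proteasome subunits 36, beside 64.5% of protein-coding genes. Near that share stood zinc finger ZNF genes with 297 of 479 detected (62.0%) and, lower, solute carriers with 212 of 363 (58.4%) and HOX genes with 22 of 38 (57.9%). Of 60 GPR receptors 18 were detected (30.0%). At the silent end, 65 of 82 olfactory receptors had no read and 0 were detected, the highest being OR51B5 at 0.668 TPM. No read was found for 14 of 22 keratin-associated proteins, 7 of 10 beta-defensins and 4 of 5 type I interferons, beside 9.5% of protein-coding genes. Of 10 small proline-rich genes 0 were detected. Of 22 claudins 5 were, with CLDN1 highest. Of 45 clustered protocadherins 1 was detected, PCDHGC3 at 14.04 TPM, and of 16 late cornified envelope genes 2, led by LCE1F at 15.6 TPM. These counts have no test.

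Levels were also summarised along the chromosomes, with no test. Over 17264 windows of 15 neighbouring protein-coding genes, the median of the windows' median levels was 6.92 TPM, and 5 windows had a median of at least 100 TPM. The highest region with no overlap, chr5:132861181-134411898 from GDF9 to CDKN2AIPNL, had a median of 145 TPM. Next were chr3:128051641-129316277 from SEC61A1 to H1-10 at 104 TPM and chr3:179148114-181714436 from PIK3CA to SOX2 at 100.7 TPM, in which 8 of 15 genes reached 100 TPM. The last of the 10 highest, chr3:183829271-184335358 from PARL to EIF4G1, had 70.8 TPM. By chromosome, the detected share of protein-coding genes ran from 51.8% on X to 69.9% on chromosome 14. DNA copy number was not measured, and its part in these levels was not tested.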
